A study of Arabidopsis thaliana with 5 samples.

Results

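EXPA7, an expansin gene of root hair cells, and 6 class III peroxidase loci ascribed to root hairs were followed in Arabidopsis thaliana roots at low pH. They were chosen by name, as the array probe sets whose single annotated gene was one of these 7. Probe sets were found for 6 of the 7, EXPA7 and 5 peroxidases, out of 13286 genes with a probe set of their own. No single-gene probe set was matched to AT1G05240, so it was not analysed here. Seedlings of ecotype Columbia (no mutant allele or transgene is named in the labels) grew for 5 days at pH 5.7 and then spent 24 h at pH 4.6. The sorted group (n = 3) held protoplasts, cells freed from their walls, that came from whole roots and had gone through a cell sorter. RNA of roughly 50000 cells was labelled for each of these arrays. The whole-root group (n = 2) held intact roots at the same pH and time, labelled from 1 µg of total RNA.

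Root hairs are tubes that single epidermal cells push out at their tip, and their growth needs a wall that yields at the tip and stiffens behind it. Expansins loosen the bonds between wall polymers and act best in acid walls. Class III peroxidases are secreted haem enzymes that use hydrogen peroxide to cross-link wall proteins such as extensins, and can also make reactive oxygen that loosens the wall. EXPA7 is a standard marker of hair-forming cells in the Arabidopsis root.

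Values are MAS5 signals in linear units, scaled by the authors so that all 5 arrays shared 1 trimmed mean of 250. A probe set was tested if its mean log2 signal lay above that of the dimmest 40% of probe sets, equal to a signal of 43.3. The test was limma across 13647 probe sets, with a Benjamini-Hochberg adjusted p under 0.05 as threshold, and a negative log2 fold change means a lower signal in sorted protoplasts. The groups differed widely. Of all tested probe sets 60.6% passed, 26.5% as lower and 34.1% as higher in sorted protoplasts. The median log2 fold change over all tested probe sets was 0.15, and centring each array on its median moved it to 0.39 (5925 higher and 2876 lower calls, against 4649 and 3623). Across probe sets, sorted replicates 2 and 3 correlated at 0.987, and sorted replicate 1 was further off, at 0.954 and 0.956 to them. The 3′/5′ ratio of the actin control probe sets was between 19.8 and 29.3 on the sorted arrays and between 3.08 and 3.30 on the whole-root arrays. Control pairs of GAPDH and ubiquitin were also higher on the sorted arrays, by amounts that depended on the pair. A GAPDH pair had ratios between 5.22 and 9.18 against 0.788 and 0.969, and another between 1.33 and 1.51 against 1.05 and 1.15. Longer genes tended to higher fold changes (Spearman's rho 0.325 across 7301 genes, which are not independent replicates). Whether replicates were grown separately is not in the labels, so the p-values rest on the differences among these 5 samples, possibly technical ones. Wall removal, cell sorting, RNA input and labelling all went with the group, and their effects cannot be told apart.

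Of the 6 measured genes, 4 passed the brightness filter, and 2 of those were lower in sorted protoplasts, AT4G26010 and AT5G17820. EXPA7 and AT1G30870 did not pass the test. None of the 4 was called higher. A count of 2 lower among 4 stands beside 26.5% lower calls in the background. For 3 of the 4 the sorted samples all lay below both whole-root samples, beside 33.1% of tested probe sets. The median log2 fold change of the 4 was -0.74, beside 0.15 over all tested probe sets. The count of 3 and this median include EXPA7, which was tested only because its whole roots were brighter. In whole RNA samples, fewer cells of a type and less RNA per cell cannot be told apart.

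EXPA7, the hair-cell expansin, gave signals of 23.3, 40.8 and 66.1 in sorted replicates 1 to 3, and of 67.7 and 69.3 in the whole-root samples. All 3 sorted samples lay below both whole-root samples, but sorted replicate 3 fell just short of them while sorted replicate 1 was far below. The means were 43.4 ± 21.5 (SD, n = 3) and 68.5 ± 1.16 (SD, n = 2). The log2 fold change of EXPA7 was -0.79, with a 95% interval from -1.76 to 0.19, and limma gave an adjusted p of 0.140. The interval reaches from a 3.39-fold lower level to a slightly higher one. Its size rested on single arrays. Without sorted replicate 1 it was -0.40 (limma adjusted p = 0.236), and without sorted replicate 3 it was -1.15 and passed (limma adjusted p = 0.0330). It was -0.28 after a curve of fold change on gene length was subtracted. The mean of EXPA7 was close to the filter bound of 43.3, and with a filter at 60% it was no longer tested. Sorted replicates 1 and 2 (23.3 and 40.8) lay under 43.3, and so did the sorted mean taken on the log2 scale. EXPA7 was thus tested only because its whole roots were brighter, and such a selection favours falls.

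**Figure D1:**
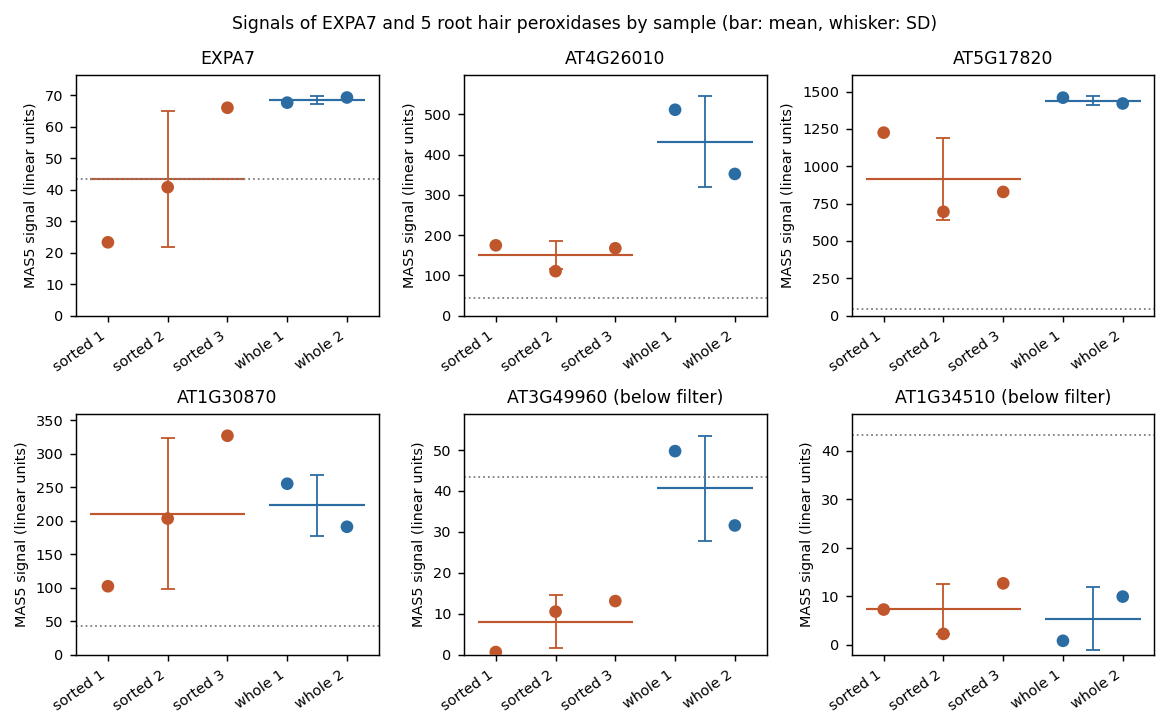
MAS5 signal in linear units (vertical axes, each with its own scale) of EXPA7 and 5 root hair peroxidases in each of 3 sorted protoplast samples (orange) and 2 whole-root samples (blue). Horizontal bars are group means, whiskers SD and dotted lines the filter bound of 43.3. AT4G26010 runs from 110 to 174 in sorted and from 352 to 512 in whole-root samples, while the sorted samples of AT1G30870 lie on both sides of the whole roots.

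AT4G26010, a root hair peroxidase locus, had signals of 174, 110 and 167 in the sorted samples and of 512 and 352 in the whole roots. The groups were clearly apart, with the brightest sorted sample at 174 and the dimmer whole root at 352. Means were 150.6 ± 35.2 (SD, n = 3) and 431.7 ± 112.9 (SD, n = 2). AT4G26010 was lower by a log2 fold change of -1.52 (SE 0.26), a 2.87-fold lower level with a 95% interval from 1.89 to 4.36 (limma adjusted p = 0.00155). The call held under each alternative run here, with log2 fold changes between -1.79 and -1.25 when single samples were left out. Of all tested probe sets, 10.5% had a lower log2 fold change than AT4G26010.

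AT5G17820, another root hair peroxidase locus, measured 1225, 695 and 828 in the sorted samples. The whole-root samples gave 1459 and 1420. All sorted samples were below both whole roots, with sorted replicate 1 the nearest to them. Means were 915.9 ± 275.8 (SD, n = 3) and 1439.8 ± 27.6 (SD, n = 2). AT5G17820 was lower by a log2 fold change of -0.69 (SE 0.23), a 1.62-fold lower level with a 95% interval from 1.12 to 2.34 (limma adjusted p = 0.0313). The call was lost with median centring (log2 fold change -0.46, limma adjusted p = 0.0935). It was also lost, by limma, without sorted replicate 2 (adjusted p = 0.0801), sorted replicate 3 (0.0808), whole-root replicate 1 (0.144) or whole-root replicate 2 (0.127). Without sorted replicate 1 it was stronger, at -0.92 (limma adjusted p = 0.000132).

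AT1G30870, a further peroxidase locus, measured 102, 203 and 327 in the sorted samples and 255 and 191 in the whole roots. The groups overlapped: sorted replicate 3 was the highest of all 5 samples and sorted replicate 1 the lowest. Means were 210.8 ± 112.5 (SD, n = 3) and 223.2 ± 45.4 (SD, n = 2). The log2 fold change of AT1G30870 was -0.22 with a 95% interval from -1.22 to 0.78 (limma adjusted p = 0.677), an interval that reaches to a 2.33-fold lower level. Its sign turned to 0.02 with median centring, to 0.22 without sorted replicate 1 and to 0.16 with the length trend removed.

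The other 2 peroxidases lay below the filter and were not tested. AT3G49960 gave 0.675, 10.5 and 13.1 in sorted protoplasts and 49.7 and 31.6 in whole roots. All sorted samples were below both whole roots, but the mean of each group (8.11 ± 6.57, SD, n = 3, and 40.7 ± 12.8, SD, n = 2) was under the bound of 43.3, so no fold is given. With no filter, AT3G49960 did not pass (limma adjusted p = 0.0778). AT1G34510 stayed at 12.7 or less in every sample, with 7.24, 2.21 and 12.7 in sorted protoplasts and 0.781 and 9.92 in whole roots. Its groups overlapped, and both were under the bound. Counting these, the sorted samples lay below both whole roots for 4 of 6 measured genes, beside 30.9% of all probe sets outside the controls.

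The measured genes differed in how they varied among the 3 sorted samples. EXPA7 was 2.84-fold and AT1G30870 was 3.20-fold brighter in sorted replicate 3 than in sorted replicate 1. AT3G49960 also had its lowest sorted value in replicate 1 and its highest in replicate 3, at dim signals. AT4G26010 (0.958-fold) and AT5G17820 (0.676-fold) did not share this, and both had their lowest sorted value in replicate 2. A ratio of replicate 3 to replicate 1 of 2 or more was found in 1.80% of tested probe sets. That bound was chosen after the values were seen, so the share is a description only. Having the lowest sorted value in replicate 1 was common in itself (42.6% of tested probe sets, against 30.8% for replicate 2). The SD of log2 signal among the sorted samples was 0.75 for EXPA7 and 0.84 for AT1G30870, higher than in 97.6% and 98.6% of tested probe sets. For AT4G26010 it was 0.37 and for AT5G17820 0.42, beside a median of 0.21 over all tested probe sets. Between the whole-root samples EXPA7 differed by an SD of 0.024 on the log2 scale and AT4G26010 by one of 0.38.

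Because these values come from the same arrays, the log2 ratio of one gene to another could be followed within each sample. Its level depends on the probes, so only its differences between samples are read. The ratio of EXPA7 to AT1G30870 stayed between -2.32 and -2.14 across the 3 sorted samples, while the genes alone varied 2.84-fold and 3.20-fold. That steadiness restates the rise of both genes from sorted replicate 1 to 3 given above and is a description only. In the whole roots the same ratio was between -1.92 and -1.46. The ratio of AT4G26010 to AT1G30870 ran from -0.97 to 0.77 in sorted samples and from 0.88 to 1.00 in whole roots. Over the 6 pairs of tested genes, the group difference in ratio was largest in size for this last pair (-1.30, exact two-sided permutation p = 0.2, adjusted p = 0.4 over 6 pairs). The smallest p in these exact permutations was 0.1 (adjusted p = 0.3, EXPA7 with AT1G30870 and AT4G26010 with AT5G17820), the lowest that such permutations of 3 against 2 samples can give, so they cannot pass 0.05. No model-based test of the ratios was run.

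The 2 genes whose 5-sample pattern was nearest to that of EXPA7 were also expansins. Likeness was the root mean square difference of log2 signals over the 5 samples, each gene centred on its own mean, among 7300 other tested genes. First came EXPA9 (0.115 on the log2 scale), then EXPA18 (0.124), a further expansin of root hair cells, and then AT1G22730 (0.152). EXPA18 measured 22.9, 43.2 and 64.4 in sorted samples and 72.7 and 58.5 in whole roots. Its sorted signals thus had their lowest value in replicate 1 and their highest in replicate 3, as those of EXPA7 did. EXPA9 followed the same pattern at 167, 305 and 392 in sorted samples and 447 and 468 in whole roots. Cross-hybridisation among these related genes was not tested. AT1G30870 was at a distance of 0.318 from EXPA7, AT4G26010 at 0.687 and AT5G17820 at 0.691. The genes nearest to the peroxidases were the plastid ribosomal protein gene rps18 for AT4G26010 (0.0687), AT3G11690 for AT5G17820 (0.0359) and AT1G48510 for AT1G30870 (0.207). These distances rest on 5 arrays in 2 groups and are a description.

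**Figure D2:**
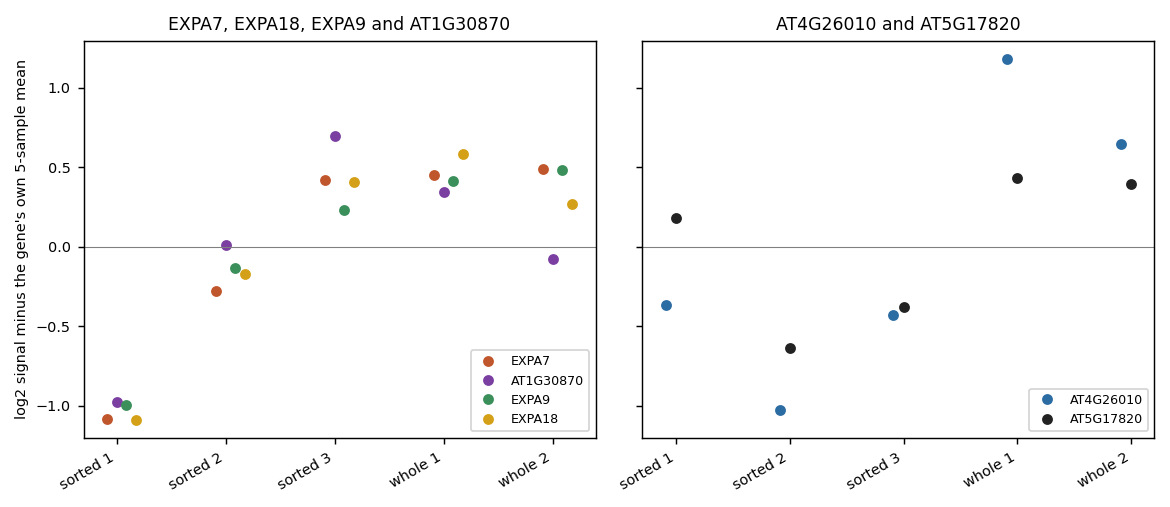
Log2 signal minus each gene's own mean over 5 samples (vertical axis) by sample, with 1 point per gene and array. On the left, EXPA7, EXPA18, EXPA9 and AT1G30870 all lie lowest in sorted replicate 1; on the right, AT4G26010 and AT5G17820 lie lowest in sorted replicate 2 and highest in the whole roots.

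The other class III peroxidases moved in both directions. Of 67 further genes of this family of 73, 50 had a probe set and 31 were bright enough to be tested, of which 11 were higher, 10 lower and 10 did not pass. Over all tested probe sets 34.1% were higher and 26.5% lower, so with this filter these counts are near the background. With no filter, 10 of the 50 were higher and 15 lower, beside 4752 higher and 4473 lower of 22746 probe sets. The median log2 fold change of the 31 was -0.18, and they ran from -6.18 to 2.86. AT4G26010 had 8 of these 31 below it, AT5G17820 had 11 and AT1G30870 had 14, so the tested hair peroxidases lay inside the range of the tested family members. Among tested genes the largest falls were those of AT1G68850, from 733.6 ± 44.5 (SD, n = 2) to 10.6 ± 3.98 (SD, n = 3), of AT1G49570 (log2 fold change -4.28) and of AT5G64120 (-3.36). Among tested genes the largest rises were those of AT4G16270, from 31.4 ± 11.2 (SD, n = 2) to 224.1 ± 43.2 (SD, n = 3), of AT2G39040 (2.42) and of AT2G43480 (2.25). The low group of AT1G68850 and of each of the 3 rising genes had a mean under the filter bound, so these genes passed through their brighter group and their folds are imprecise. The filter on mean log2 signal also left out genes that were bright in whole roots alone. AT2G35380, named after its values were seen, had means of 1058.4 ± 126.6 (SD, n = 2) in whole roots and 6.75 ± 7.58 (SD, n = 3) in sorted protoplasts and was not tested.

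**Figure D3:**
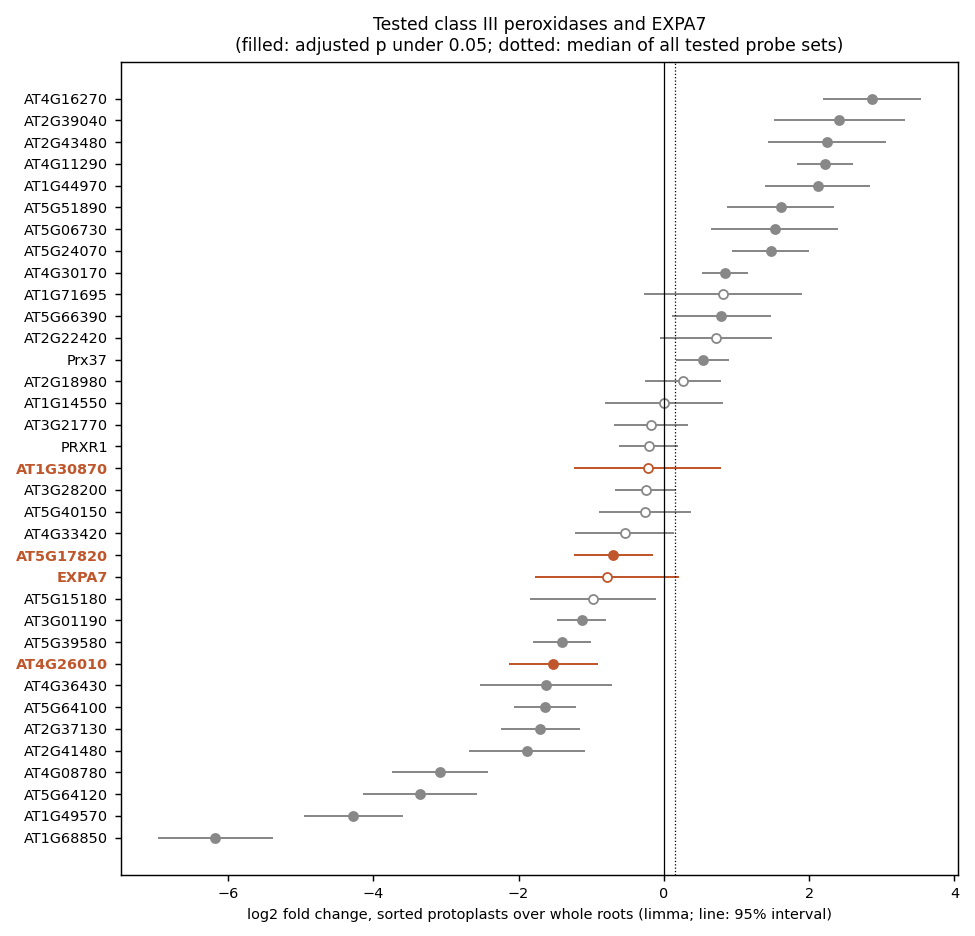
Log2 fold change of sorted protoplasts over whole roots (horizontal axis) with 95% intervals for 34 tested class III peroxidases and EXPA7. Filled points have a limma adjusted p under 0.05, the dotted line is the median of all tested probe sets, and orange marks EXPA7, AT4G26010, AT1G30870 and AT5G17820, which lie between -1.52 and -0.22 while the tested family members span -6.18 to 2.86.

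Few other genes of hair growth had a probe set of their own. Of 30 listed root hair growth genes 2 were measured and tested. FER, the receptor kinase FERONIA of the cell surface, was lower (log2 fold change -0.60, limma adjusted p = 0.0185), a call lost with median centring (adjusted p = 0.136) and without whole-root replicate 1 (0.0727) or 2 (0.122). EXPA18 did not pass (-0.71, limma adjusted p = 0.184). As for EXPA7, its sorted mean on the log2 scale was under the filter bound, and its brighter whole roots brought it into the test. Of 9 listed hair transcription factors 1 was measured, AT2G14760, which was under the filter. Its mean was 1.94 ± 0.583 (SD, n = 3) in sorted protoplasts, against 16.6 ± 1.80 (SD, n = 2) in whole roots. Of 10 epidermal patterning genes 1 was measured, TRY, a small MYB-type protein. It was also under the filter, with means of 23.7 ± 4.21 (SD, n = 3) and 16.5 ± 8.97 (SD, n = 2).

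The listed NADPH oxidases, the enzyme family that supplies the superoxide from which hydrogen peroxide forms, and the extensins, wall proteins that peroxidases cross-link, were lower where tested. Of 10 listed oxidase loci 3 were measured and 2 tested, and both fell, beside 26.5% of all tested probe sets called lower. Both passed the filter through their whole-root signal, which favours falls, so this count is a description only. The remaining measured locus, AT4G11230, was under the filter and its groups overlapped. Its means were 28.1 ± 2.90 (SD, n = 3) after sorting and 31.9 ± 2.48 (SD, n = 2) in whole roots. AT4G25090 went from 213.3 ± 59.3 (SD, n = 2) to 34.7 ± 25.3 (SD, n = 3), a log2 fold change of -2.90 (limma adjusted p = 0.00454), lost without whole-root replicate 1 (limma adjusted p = 0.0554). AT1G19230 went from 198.2 ± 2.01 (SD, n = 2) to 38.7 ± 11.1 (SD, n = 3), a log2 fold change of -2.40 (limma adjusted p = 0.000262). Of 13 listed extensins 6 were measured and 3 tested, and all 3 fell (median log2 fold change -3.81), beside the same 26.5%. HRGP1, a hydroxyproline-rich wall protein, fell by 2.85 on the log2 scale, from 523.3 ± 6.49 (SD, n = 2) to 73.3 ± 11.9 (SD, n = 3). AT3G54580 (-4.97) and AT1G23720 (-3.81) were the others. The probe sets of HRGP1 and AT1G23720 are of the array's class whose probes can match related genes, and extensins share repeats, so their signals may be mixed. AT4G25090, AT1G19230 and AT3G54580 had sorted means under 43.3, so they passed the filter through their whole-root signal. None of the 9 listed hydrogen peroxide scavengers had a single-gene probe set.

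Markers of other root cell types moved with the group in both directions, and their part in the values of the hair genes was not tested. The hair-cell marker list had 2 of 8 genes measured, EXPA7 itself and EXPA18, with a summed signal between 46.1 and 130.4 in sorted samples and between 127.8 and 140.4 in whole roots. This sum restates the values of EXPA7 and of the gene with nearly its pattern, and gives no independent check of hair cells. All 4 cortex markers were measured, with sums between 158.8 and 205.1 in sorted and between 247.3 and 254.0 in whole-root samples. JKD (log2 fold change -1.50) and AT1G62510 (-1.10) of that list fell, while AT1G09750 was under the filter at 67.1 ± 11.8 (SD, n = 3) after sorting and 20.6 ± 11.5 (SD, n = 2) without it. The AT1G62510 call did not hold after removal of the length trend or without whole-root replicate 2 (limma adjusted p = 0.0947). LHW of the stele (1.34, 1 of 4 listed measured) and CR4 of the stem cell niche (2.13, 1 of 4) rose. The whole-root mean of CR4 (18.3) and the sorted mean of AT1G62510 (35.5) were under the filter bound, so these genes passed it through their brighter group. GSO1 of the endodermis (1 of 8 measured, 0.67), GUT2 of the xylem (1 of 6, 0.31) and AT1G65570 of the root cap (1 of 5, 0.81) did not pass. No listed phloem or non-hair epidermis gene had a probe set of its own. Of 4 photosynthesis genes of green tissue 2 were measured, and RCA and LHCB4.1 fell, with a summed signal between 92.6 and 111.9 in sorted and between 801.8 and 970.8 in whole-root samples.

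EXPA7, AT4G26010 and AT1G30870 are short genes, of 1465, 1751 and 1606 bp in the gene table (introns included), in the shortest of 4 equal groups by length, whose median log2 fold change was -0.58. AT5G17820, of 2390 bp, fell in the third group, whose median was 0.35. Against the curve of fold change on length, AT4G26010 was lower by a log2 value of -1.25 and AT5G17820 by one of -0.79, both still past the threshold (limma adjusted p = 0.00468 and 0.0208).

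**Figure D4:**
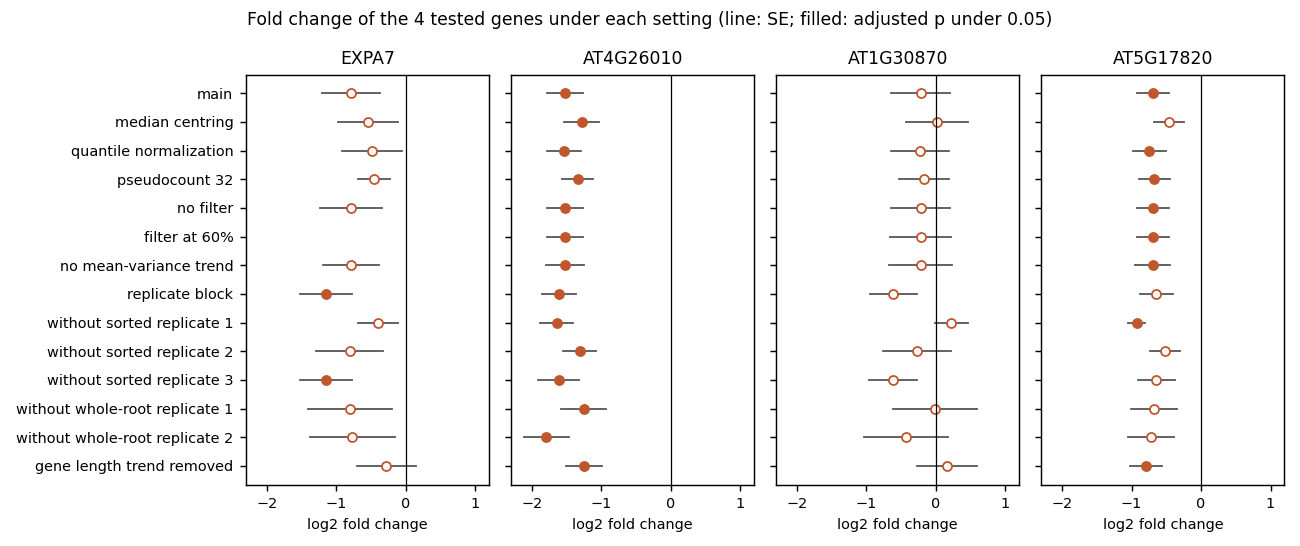
Log2 fold change of sorted protoplasts over whole roots (horizontal axes) of the 4 tested genes under each setting, with lines of 1 SE. Filled points have an adjusted p under 0.05, from limma or, with the length trend removed, from the distance to the curve and the limma SE. AT4G26010 is filled throughout, between -1.79 and -1.25; AT1G30870 crosses 0; EXPA7 has no point at the 60% filter.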

How the data were processed

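The authors deposited linear intensity values, 1 for each array and probe set; these are MAS5 output, according to the submitters' processing notes. Software version and genome build are not given in the sources used here. The deposited values carry no detection calls, and array number limits precision (3 against 2). Log2 of the signals was tested with no further scaling by limma 3.58.1 (R 4.3.3; lmFit, eBayes with mean-variance trend, group as sole factor) after leaving out 64 control probe sets and the dimmest 40% by mean log2 signal (9099). Genes were named through the platform annotation and RefSeq (13436 of 13513 single-gene probe sets matched by gene ID), each by its probe set of highest mean. The genes and lists were chosen with earlier results of these data known. The 73 class III peroxidases were listed from knowledge of the family, since the reference tables hold no descriptions, after the planned rule by description could not be applied. Named were EXPA7 and the listed peroxidases, of other peroxidases the 3 lowest and 3 highest tested, of each list up to 3 called members (else the smallest adjusted p), and the nearest patterns. Members that were not tested, such as AT2G14760, AT1G09750 and AT2G35380, were named after their values were seen. Pairs were compared by exact permutation. Alternatives were leaving out each sample, removal of the length trend, a replicate block, no trend, no filter, a 60% filter, a pseudocount of 32, quantile normalization and median centring. The limma script was tested on simulated data, with no value quoted here.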

Additional observations from a re-analysis of the deposited data

How the results depend on the processing

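AT4G26010 kept its call under each alternative run. The AT5G17820 call was lost with median centring (-0.46) and lay between -0.92 and -0.52 when single samples were left out. EXPA7 lay between -1.15 and -0.40 in those fits and passed in 1 of them. AT1G30870 lay between -0.62 and 0.22, and its sign turned with median centring (0.0172) and with the length trend removed (0.16). The cause was not tested. The number of hair genes called lower, 2, was 1 with median centring and between 1 and 2 when single sorted samples were left out. The same count hid a change of genes. Without sorted replicate 3, and with the replicate block, the 2 called were AT4G26010 and EXPA7, and AT5G17820 was not called. Over all tested probe sets, lower calls went from 3623 to 2223 at the 60% filter and to 1753 with the length trend removed, and higher calls from 4649 to 2212 with the trend removed, where only 7301 genes with a length were tested. Single samples left out gave between 2660 and 4173 lower and between 3344 and 5280 higher calls. Extensins called lower were 5 with no filter, against 3, and other peroxidases called higher 7 at the 60% filter, against 11. Replicate numbers are shared between groups but give only 2 pairs, and deviations of same-numbered samples correlated at 0.0057 and 0.0013. Deviations of 2 whole-root samples mirror each other, so these correlations cannot tell whether same-numbered samples shared more than a number. With the replicate block EXPA7 was at -1.15 (limma adjusted p = 0.0295), AT5G17820 at -0.64 (0.05004), AT4G26010 at -1.61 and AT1G30870 at -0.62. Sorted replicate 3 has no whole-root partner, so these fold changes equal those without sorted replicate 3. The block is therefore no separate check of them. EXPA7 could not be tested at the 60% filter. Signals near or under 43.3 limit what can be said of EXPA7, AT3G49960 and AT1G34510. The alternative of further probe sets per gene was not run, because each measured hair gene had 1.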
